A study of Mus musculus with 2 samples.

Results

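The Ighg1 and Ighg3 interval is the part of the mouse immunoglobulin heavy chain (Igh) locus that holds the constant genes of the IgG1 and IgG3 antibody classes with their switch regions. It was described here through the contacts of every HindIII fragment whose midpoint lay within the approximate bounds of these genes on chromosome 12 (build mm9). This rule, which used positions and no counts, chose 6 of 206 assayed fragments and, with them, 609 of 10584 assayed primer pairs. The fragments were R48 (114558042 to 114559615), F49 (114559616 to 114579798), F54 (114594537 to 114601396), R55 (114601397 to 114612029), F58 (114614961 to 114617010) and R61 (114617320 to 114617981). F marks a fragment read with a forward primer and R one read with a reverse primer, and only a forward and a reverse fragment can be paired. R48 and F49 lie on the Ighg1 side and the other 4 fragments on the Ighg3 side, by the gene order in RefSeq. No annotation of build mm9 was used, so no fragment was assigned to an exon, an intron or a switch region.

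Contacts were measured by 5C, in which fixed chromatin is cut with HindIII, ligated, and the junctions of chosen fragments are amplified with paired primers and sequenced. The cells were resting B cells from the spleen of C57Bl/6 mice, enriched as CD43- cells with magnetic beads and left unstimulated. Both libraries, which the design text calls biological replicates, belonged to this 1 group, and the study set out to map contacts over the whole locus. The design therefore holds no contrast of conditions, and an exact sign-flip permutation test over 2 libraries cannot go below p = 0.5.

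Resting B cells make IgM and IgD from the Ighm and Ighd genes, which lie next to the rearranged VDJ segment. After activation, class-switch recombination joins the switch region before Ighm to one before a downstream constant gene such as Ighg1 or Ighg3, and the DNA between them is lost. The 3' regulatory region, a group of enhancers past Igha at the far end of the constant genes, is known to drive transcription through the switch regions, and the intronic enhancer Eμ lies between the JH segments and Ighm. Along the chromosome, from low to high coordinates, the order is 3' regulatory region, Igha, Ighe, Ighg2c, Ighg2b, Ighg1, Ighg3, Ighd, Ighm, Eμ with JH, D segments and VH segments.

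The 609 pairs held 518884 of 16067416 counts in replicate 1 (3.23%) and 460758 of 15096402 in replicate 2 (3.05%). Among them, F49-R48 and F54-R55 joined fragments that share a HindIII site, so that uncut or simply re-joined DNA cannot be told from a contact. F49-R48 had 19832 counts in replicate 1 and 16583 in replicate 2, and F54-R55 had 25301 and 24012. These 2 pairs held 8.75% ± 0.0795 (SD, n = 2) of the interval's counts and were left out of the levels, shares and fitted tests that follow. In the whole locus 81 pairs share a site. With all of them left out, the interval held 7.45% of the counts in replicate 1 and 7.31% in replicate 2. It made up 5.75% of assayed pairs, so its share of counts lay below that with shared-site pairs and above it without them. Over the interval's remaining 607 pairs the counts of the libraries had a Spearman correlation of 0.947 across pairs, which are not independent replicates and share fragments and depth. The median fold between the libraries was 1.28 over 381 pairs with at least 100 counts in each. The libraries differed by 28.1 times what counting error alone gives (chi-square over 603 degrees of freedom), so each value is given for both.

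A large part of the interval's counts lay in few pairs. The 5 largest pairs held 19.8% of counts in replicate 1 and 20.5% in replicate 2, and the 20 largest held 44.0% and 44.2%. The single largest was F49-R44, 26.3 kb apart, which joined the Ighg1 side to the Ighg2c and Ighg2b genes (other IgG subclasses) with 31995 and 30720 counts. F54-R44 followed with 17654 and 15457 counts, then F49-R33 with 15891 and 14065 and F54-R33 with 14673 and 13471. R44 (114539129 to 114547720) and R33 (114486613 to 114491122) were thus the partners of all of the 4 largest contacts. At the low end, 4 pairs had 0 counts in replicate 1 and 7 in replicate 2. The 3 pairs at 0 in both (F58-R345, F58-R428 and F58-R528) all involved F58, and a count of 0 allows up to 3 counts at this depth. The reads had no stated molecular identifiers, so this limit covers counting error only.

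**Figure D1:**
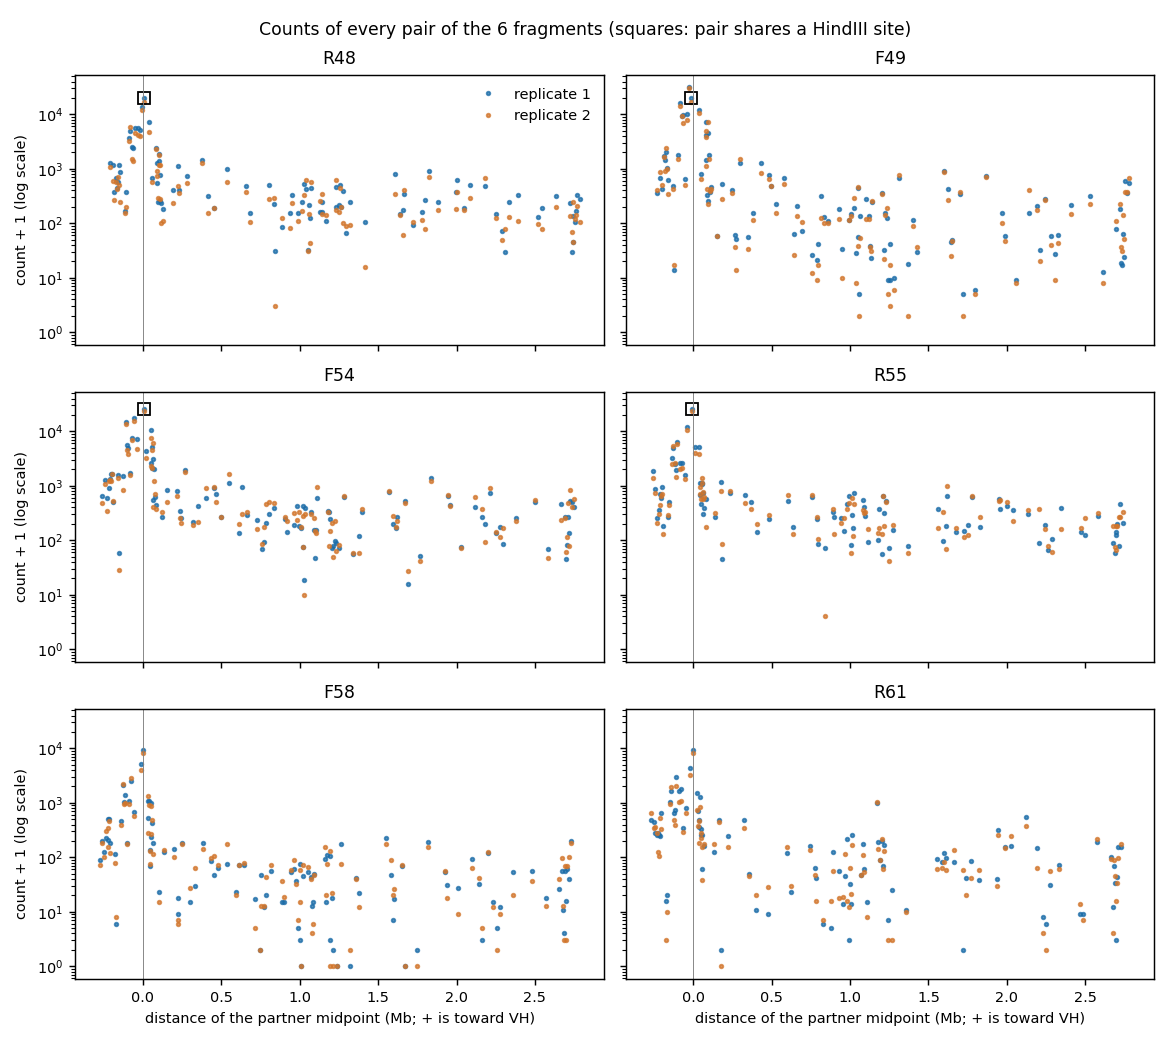
Counts plus 1 (log scale) of every pair of each of the 6 fragments against the distance of the partner's midpoint in Mb, with positive values toward the VH segments. Blue and orange points are replicates 1 and 2, and squares mark pairs that share a HindIII site. Counts are highest among nearby partners in all 6 profiles, and the points of F58 and R61 lie below those of F54 and R55 over most of the locus.

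The 6 fragments differed widely in how many counts they gave. Without the shared-site pairs, F49 held 138144 counts in replicate 1 and 125428 in replicate 2, and F54 held 130109 and 117103. R48 held 88535 and 71407, and R55 held 80861 and 73674. R61 held 41027 and 32980, and F58 held the fewest, with 34466 and 31423. In both libraries the lowest total of the first 4 fragments was above the highest of F58 and R61. The order followed fragment length only in part. F49, at 20.2 kb the longest, had a median of 188 and 144 counts per pair, while R48, at 1.57 kb, had 323 and 238. F58 (2.05 kb) had medians of 53.5 and 67.5, and R61 (0.662 kb) of 123 and 94. F58 and R61 are also close neighbours, so any point of the locus is at almost the same distance from both. Their partners are different fragments, since F58 pairs only with reverse and R61 only with forward fragments.

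A distance level was computed for each pair as log2(count + 1) minus the value expected at its distance, from a smooth fit over all pairs of the locus that share no site. The median distance level was 2.14 ± 0.125 (SD, n = 2) for F54, 1.70 ± 0.137 for R55, 1.60 ± 0.251 for R48 and 1.04 ± 0.0846 for F49. It was 0.10 ± 0.0913 for R61 and -0.56 ± 0.0681 for F58. Over all 10503 pairs of the locus that share no site the median was 0.28 in replicate 1 and 0.33 in replicate 2. F54, R55, R48 and F49 thus lay above the locus as a whole in both libraries, and R61 and F58 below it. Just outside the bounds, F46 (114551907 to 114557959), which overlaps the interval with its midpoint outside, had medians of -0.47 and -0.16, against 1.78 and 1.42 for R48 just inside. At the other edge F68 had 1.06 and 0.92, against 0.17 and 0.037 for R61. Such a level mixes contacts with the recovery of a primer, and the part of each was not tested. A corrected level was therefore also computed, from which the additive effect of each forward and reverse primer was removed along with distance. The primer effect removed was 2.08 ± 0.122 for F54 and -0.97 ± 0.0913 for F58 (log2), with the others between these values. Over the interval's 607 pairs the libraries agreed less in corrected levels (Spearman correlation 0.695) than in counts (0.947).

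By partner, the interval's counts went mainly to the other constant genes. These took 45.8% ± 1.49 (SD, n = 2) of counts over 63 pairs, of which Ighg2c and Ighg2b took 22.2% ± 0.134, Igha and Ighe 12.2% ± 0.743, and Ighd and Ighm 11.4% ± 0.617. VH segments took 18.3% ± 0.417 over 378 pairs, the 3' regulatory region 12.9% ± 0.393 over 24 pairs, and Eμ with JH 4.42% ± 1.08 over 12 pairs. Pairs within the interval took 7.95% ± 0.519, the flank past the 3' regulatory region 7.10% ± 0.140, the flank past the VH segments 1.92% ± 0.243, and the D cluster with IGCR1 1.60% ± 0.0170. IGCR1 is the intergenic control region between the D and VH segments. These shares are not corrected for distance. The median distance was 66.3 kb to the other constant genes, 134 kb to the 3' regulatory region, 64.4 kb to Eμ with JH and 1172 kb to VH. All distances are those of build mm9 and take no account of the VDJ rearrangement in the cells. Distances to D and VH segments may therefore differ in the cells, which also bears on the levels below and was not tested.

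With distance taken out, the same order held only in part. The median distance level was 2.59 ± 0.0486 (SD, n = 2) with Ighg2c and Ighg2b, 2.49 ± 0.0592 with Igha and Ighe, 1.54 ± 0.0161 with the 3' regulatory region, 1.52 ± 0.0426 with the flank beyond that region and 1.43 ± 0.351 with Eμ and JH. It was 1.08 ± 0.00318 with VH, 0.73 ± 0.183 with Ighd and Ighm and 0.0048 ± 0.373 with the D cluster and IGCR1. Levels with the 3' regulatory region and with Eμ and JH did not differ beyond the spread of the libraries, since the 2 libraries gave 1.18 and 1.68 with Eμ and JH, on either side of 1.55 and 1.53. Once primer effects were removed, a step that itself centres the pairs of each fragment near 0, most medians lay closer to 0 and their order changed. The median corrected level was 0.59 ± 0.155 with Igha and Ighe, 0.39 ± 0.0177 with Ighg2c and Ighg2b, 0.13 ± 0.0332 with VH, 0.056 ± 0.0994 with the 3' regulatory region and -0.56 ± 0.0553 with Eμ and JH. Eμ with JH thus passed from above to below 0, while the constant genes on the Igha side stayed the highest. Ighd with Ighm (-0.11 ± 0.0251) and the flank beyond the 3' regulatory region (-0.10 ± 0.104) also passed below 0. The D cluster with IGCR1 had -0.23 ± 0.213, farther from 0 than its distance level.

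**Figure D2:**
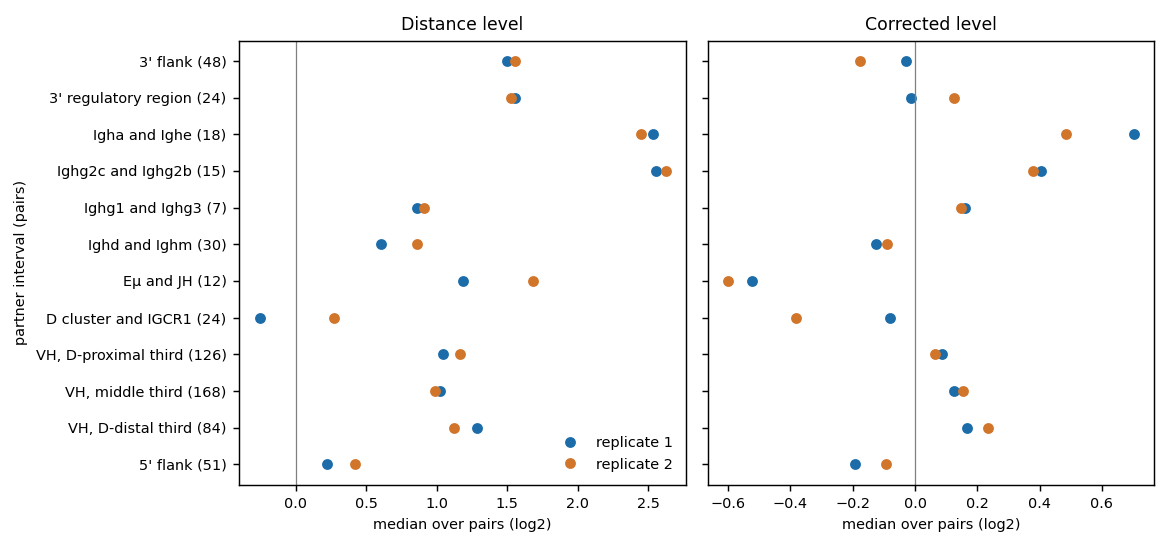
Median distance level (left) and median corrected level (right), both log2, of the interval's pairs with each partner interval, with the number of pairs in brackets and 1 point per replicate. Igha with Ighe and Ighg2c with Ighg2b lie highest in both panels, and Eμ with JH is positive on the left and negative on the right in both replicates.

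Single pairs were tested with limma for a corrected level other than 0, over all 10503 pairs of the locus. Of the interval's 607 pairs, 85 (14.0%) were higher and 55 (9.06%) lower than their fragments and distance gave (Benjamini-Hochberg adjusted p under 0.05), against 12.0% higher and 7.53% lower of all pairs. The interval's shares lay near this background. Nearly all of these calls rest on a variance that follows the mean count. With 1 common variance, 2 pairs stayed higher, F402-R61 (adjusted p = 0.0227) and F117-R48 (0.0374), and 2 lower, F20-R55 (0.0432) and F117-R61 (0.0434). The common variance called 1.10% of all pairs higher and 0.352% lower. Without pairs of a mean count under 10, 64 of 567 pairs were higher and 28 lower, against 9.90% and 4.54% of all pairs tested. A fit restricted to fragments below the VH segments, chosen after seeing the data, covered 178 of the pairs and kept 27 of their 36 higher and 17 of their 34 lower calls. It called 54 of the 178 higher and 29 lower, against 24.7% higher and 19.0% lower of all pairs it tested, so its lower calls lay below their background.

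**Figure D3:**
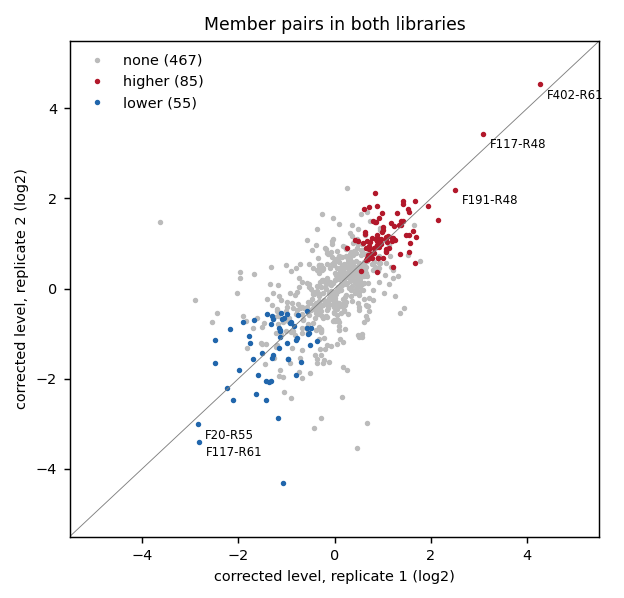
Corrected level (log2) of the 607 pairs in replicate 1 against replicate 2, with pairs called higher in red and lower in blue by limma and the diagonal in grey. F402-R61 and F117-R48 lie at the upper end and F20-R55 and F117-R61 near the lower end, close to the diagonal.

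Of the 24 pairs with the 3' regulatory region, 16 had a distance level above 0, and R33, F31, F28 and R29 were above 0 in all 3 of their pairs. R33, at its Igha end, held 54.3% ± 0.760 (SD, n = 2) of the region's counts with the interval, and the 3 pairs of R33 were all called higher. F49-R33 had a corrected level of 1.43 (SE 0.136, adjusted p = 4.02e-05), F58-R33 of 0.98 (2168 and 2181 counts, adjusted p = 0.00252) and F54-R33 of 0.47 (adjusted p = 0.0353). Without R33 the region's share of the interval's counts was 5.88% ± 0.277 and its median distance level 0.89 ± 0.0747. R33 borders the fragments counted with Igha and Ighe, and the interval edges are approximate, so R33 may belong to either. F31 (114477117 to 114480873) was the next partner, with 5033 and 5854 counts to R48 and 4850 and 5380 to R55, and none of its 3 pairs was called. In the restricted fit all 3 were called higher, with 0.49 for R48, 0.93 for R55 and 1.01 for R61 (adjusted p = 0.0146, 0.00113 and 0.00377). F28 summed to 8039 and 6587 counts over its 3 pairs, and neither fit called any of them. R29 (114474053 to 114474922) was called higher with F49 (1805 and 1544 counts, corrected level 1.15, adjusted p = 0.00145) and with F58 (456 and 386 counts, 1.40, adjusted p = 0.00219), but not with F54 (1533 and 822 counts, -0.35, adjusted p = 0.274).

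Low counts were found at R24 and, with R61, at its neighbours F23 and F25. R24 (114447061 to 114449887) had 13 and 16 counts with F49, 57 and 28 with F54 and 5 and 7 with F58, although these fragments are 121 to 168 kb apart. The first 2 of these pairs were called lower, with corrected levels of -2.07 (adjusted p = 0.0231) and -1.68 (adjusted p = 0.0306). F23 and F25, on either side of R24, had 15 and 2 and 19 and 9 counts with R61, and both pairs were called lower. With R55, F23 had 269 and 289 counts and was called higher (corrected level 1.24, adjusted p = 0.0112). R22 (114434637 to 114441221), the farthest fragment of the region, had 489 and 418 counts with F49, and its pair with F54 was called higher (1570 and 1403 counts, 0.67, adjusted p = 0.0246). In all, 7 of 24 pairs of the region were called higher (29.2%) and 4 lower (16.7%), against 12.0% and 7.53% of all pairs. The restricted fit kept these 11 calls. In all it called 11 of the 24 pairs higher and 5 lower, against its background of 24.7% and 19.0%.

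Higher calls were frequent with the constant genes on the Igha side. Of 18 pairs with Igha and Ighe, which encode IgA and IgE, 9 were higher (50%) and 1 lower (5.56%), and of 15 pairs with Ighg2c and Ighg2b 6 were higher (40%) and 3 lower (20%), against 12.0% and 7.53% of all pairs. In the restricted fit 12 and 11 of these pairs were higher and 0 lower, against its background of 24.7% and 19.0%. F49 led: its pair with R44 had a corrected level of 1.65 (SE 0.145, adjusted p = 2.17e-05). F49-R35 had 9137 and 9169 counts and a corrected level of 1.49 (adjusted p = 7.12e-05), F49-R37 9758 and 6890 counts and 1.37 (8.08e-05), and F49-R41 10230 and 7816 counts and 1.31 (0.000117). F49 was not called higher with R39 (662 and 502 counts, 0.23, adjusted p = 0.494), the reverse fragment between R37 and R41. Both libraries placed F49-R39 far below the pairs of its neighbours.

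F58, the fragment with the fewest counts, was called higher in all of its 5 pairs with these genes, of which F58-R39 lost its call in the restricted fit (0.73, adjusted p = 0.0573). Its pair with R44 had 2515 and 2886 counts and a corrected level of 1.18 (adjusted p = 0.000886), and its pair with R37 had 1410 and 997 counts and 1.01 (adjusted p = 0.00411). R61, next to F58, had 4 of 6 such pairs called higher. F54 had 1 of 5, with R39 (1754 and 1581 counts, 1.05, adjusted p = 0.0021), while its much larger pair with R44 missed the threshold (0.41, adjusted p = 0.053). The restricted fit called 4 of the 5 higher, F54-R44 (0.78, adjusted p = 0.000573), F54-R41 (0.72, 0.00349) and F54-R35 (0.34, 0.0359) among them. R48 had 0 of 6 higher and 3 lower, but the restricted fit kept none of its lower calls. F43-R48 (5136 and 3942 counts) went from -0.85 (adjusted p = 0.00438) to -0.07 (0.596) and F38-R48 from -0.84 (0.00322) to -0.05 (0.684). F40-R48 (5505 and 4172 counts) went from -0.54 (adjusted p = 0.0301) to 0.57 (0.00623) and F46-R48 from -0.02 (0.933) to 0.45 (0.0113), both called higher there, so the direction of R48 is not settled. R48 and F49 are direct neighbours, yet a forward fragment pairs only with reverse partners, so the partners of R48 and F49 are different fragments.

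Within the interval, F49-R55 joined the Ighg1 side to the Ighg3 side over 37.0 kb. It had 11965 and 10632 counts, a corrected level of 1.65 (SE 0.143) and an adjusted p of 1.94e-05. F54-R48, which spans nearly the same 39.1 kb from the other pair of fragments, had 7348 and 4667 counts and a corrected level of -0.25 (adjusted p = 0.265). F58-R61, whose fragments lie 0.309 kb apart at their edges, had 9151 and 8078 counts and was called higher (0.77, adjusted p = 0.00426). The other 4 fitted pairs inside the interval were not called. In the restricted fit F49-R55 kept its call (1.51, adjusted p = 8.15e-05), F58-R61 lost it (0.25, 0.0679) and F54-R48 was called higher (0.35, 0.0276). There F58-R55 (0.66, adjusted p = 0.00443) and F54-R61 (0.48, 0.0166) were also called higher and F49-R61 lower (-0.64, 0.0276), so among the pairs inside the interval only F49-R55 was called in both fits.

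**Figure D4:**
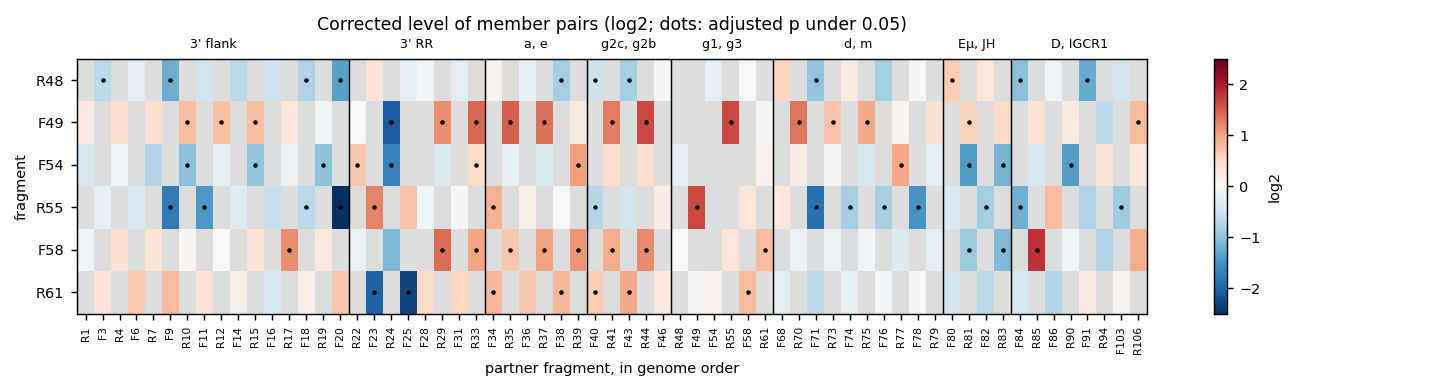
Corrected level (log2, colour, cut at 2.5 in size) of the 6 fragments with each partner from the 3' flank to IGCR1, in genome order, with dots at pairs called by limma. Grey cells were not assayed or share a site. Red cells of F49 and F58 run through Igha to Ighg2b, and the row of R55 is blue in 4 of its 5 cells at Ighd and Ighm, all but F68.

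With Ighd and Ighm, the genes that resting B cells use, the fragments split. Of 30 pairs 4 were higher (13.3%) and 5 lower (16.7%), against 12.0% and 7.53% of all pairs, so the higher calls lay near the background. In the restricted fit 7 were higher and 8 lower, against its background of 24.7% and 19.0%. F49 was higher with R70 (7158 and 4866 counts, 1.33, adjusted p = 0.000164), R75 (4116 and 3884 counts, 0.95, adjusted p = 0.00253) and R73 (1453 and 1133 counts, 0.72, adjusted p = 0.0203). The first of these kept its call in the restricted fit (0.65, adjusted p = 0.00913), and the others did not (0.24 and -0.12, adjusted p = 0.113 and 0.539). R55 was lower in 4 of 5 pairs, led by F71-R55 (691 and 697 counts, -1.89, adjusted p = 0.00014) and F78-R55 (1101 and 1368 counts, -1.48, adjusted p = 0.000581). The restricted fit kept 3 of these 4 calls, without F76-R55 (-0.29, adjusted p = 0.297). The highest distance level was that of F54-R70, 50.4 kb apart, with 10496 and 7536 counts, whose corrected level of 0.21 was not called (adjusted p = 0.363). In the restricted fit F54-R70 was called higher (0.42, adjusted p = 0.0125). So were F68-R48 (0.47, 0.0409), F74-R48 (0.52, 0.0356), F78-R48 (0.70, 0.0108) and F68-R55 (0.38, 0.0257). F49-R77 (-0.91, adjusted p = 0.0189) and F54-R75 (-0.37, 0.0275) were called lower there. F58 and R61, the fragments nearest to Ighd by position, had 0 of 10 pairs called in either direction, but the restricted fit called F58-R75 (-0.49, adjusted p = 0.0444), F58-R77 (-1.12, 0.0199) and F68-R61 (-0.53, 0.0479) lower.

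Contacts with Eμ and JH were numerous but mostly no higher than the fragments gave. R81 (114664824 to 114667095) held 57.4% ± 9.95 (SD, n = 2) of these counts. F49-R81 had 4616 counts in replicate 1 and 7145 in replicate 2, and F54-R81 had 3115 and 6009, so replicate 2 was higher in both. F49-R81 was called higher (0.58, adjusted p = 0.0427), as was F80-R48 (1371 and 1168 counts, 0.64, adjusted p = 0.0353). F54-R81 was called lower (-1.41, adjusted p = 0.000462), and so were F54-R83 (2019 and 1225 counts, -1.17, adjusted p = 0.00479), F58-R81 (978 and 875 counts, -0.94, adjusted p = 0.00872), F58-R83 (232 and 266 counts, -1.11, adjusted p = 0.0169) and F82-R55 (733 and 760 counts, -0.84, adjusted p = 0.0166). The pairs called higher came from the Ighg1 side and those called lower from the Ighg3 side. They were 2 (16.7%) and 5 (41.7%) of 12 in all, against 12.0% and 7.53% of all pairs. In the restricted fit F54-R81, F58-R81 and F80-R48 kept their calls and the other 4 did not, with F54-R83 at -0.25 (adjusted p = 0.362) and F82-R55 at -0.25 (0.275). There F49-R83 and F82-R48 were called higher and F80-R61 lower. In all that fit called 3 of the 12 pairs higher and 3 lower, against its background of 24.7% and 19.0%. The excess of lower calls in the main fit was thus not seen there.

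In the D cluster and IGCR1, 2 of 24 pairs were higher (8.33%) and 5 lower (20.8%), against 12.0% and 7.53% of all pairs. The restricted fit called 2 of the 24 pairs higher and 2 lower, against its background of 24.7% and 19.0%. It kept 1 of the higher and 0 of the lower calls. The kept call, F58-R85, was 58.3 kb apart and had 429 and 493 counts and a corrected level of 1.80 (SE 0.236, adjusted p = 0.000411), among the 10 highest of the interval. The same partner had 621 and 701 counts with F54 (-0.42, adjusted p = 0.194) and 370 and 398 with F49 (0.33, adjusted p = 0.378). The count of F58-R85 was thus close to those of F49 and F54, whose counts elsewhere were several times higher, but F58 also lies nearest to R85. Distance levels in replicates 1 and 2 were -0.27 and 0.32 for F58-R85, 0.20 and 0.65 for F49-R85 and 0.60 and 1.13 for F54-R85. F58-R85 thus stood out only once primer effects were removed. F54-R106, at the far end of IGCR1, had the highest distance level of this group, with 837 and 514 counts (1.59 ± 0.266, SD, n = 2).

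VH segments, which supply the variable part of the heavy chain, gave 46 higher and 20 lower calls among 378 pairs (12.2% and 5.29%), near the background of all pairs. In 3 equal parts of the VH span, from the D-proximal to the D-distal, 13 of 126, 24 of 168 and 9 of 84 pairs were higher and 8, 7 and 5 lower. The median distance level was 1.10 ± 0.0870, 1.0 ± 0.0230 and 1.20 ± 0.115 (SD, n = 2) in the 3 parts. The first and the last of these did not differ beyond the spread of the libraries. F58 had 1 of 68 VH pairs higher and 5 lower, and R55 had 13 of 58 higher and 5 lower, against 12.0% and 7.53% of all pairs. Of the others, F54 had 5 of 68 higher, R61 5 of 58, F49 11 of 68 and R48 11 of 58. The median corrected level of F58 with VH was 0.029 ± 0.0384. F58 also had the lowest median counts of the 6 fragments (53.5 and 67.5), and whether this limits its calls was not tested.

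A few VH pairs stood far above the rest. F402-R61, 1.17 Mb apart, had 991 counts in replicate 1 and 1016 in replicate 2, a corrected level of 4.39 (SE 0.199, adjusted p = 7.79e-08) and thus 21.0 times the value its fragments and distance gave, on the scale of count + 1. F402 (115786561 to 115788403) had 460 and 173 counts with R48 and 99 and 135 with R55, neither called (adjusted p = 0.111 and 0.167). R55 gave fewer counts than R61 here, although it gave more over all partners. F117-R48, 234 kb apart, had 413 and 353 counts (3.25, adjusted p = 7.00e-06), whereas F117 (114791568 to 114794187) had 45 and 83 with R55 and 1 and 0 with R61. The pair F117-R61 was called lower (-3.11, adjusted p = 0.00183). F191-R48, 534 kb apart, had 983 and 581 counts (2.34, adjusted p = 2.50e-05), against 244 and 288 for F191-R55 and 8 and 27 for F191-R61. These VH fragments are forward fragments and could be paired only with R48, R55 and R61.

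Among other VH pairs, F694-R55 (189 and 159 counts, 2.24 Mb) had a corrected level of 1.89 (adjusted p = 0.00165) and F661-R61 (553 and 376 counts, 2.12 Mb) of 1.84 (adjusted p = 0.000543). F702-R55 (65 and 79 counts, adjusted p = 0.0164) and F306-R55 (327 and 373 counts, adjusted p = 0.00124) followed with 1.68 and 1.63. F49-R499, 1.60 Mb apart, had the highest distance level of the middle part, with 899 and 855 counts. F54-R571 had that of the D-distal part, 1.84 Mb away, with 1366 and 1220 counts, and its corrected level of 0.50 was not called (adjusted p = 0.09). At the low end, F287-R48 had 30 counts in replicate 1 and 2 in replicate 2 (-2.68, adjusted p = 0.0247), a spread far wider than that of the pairs above. F49-R420 (8 and 2 counts), F58-R420 (1 and 0) and F58-R428 (0 and 0) were also called lower. Their values lie near the limit of 3 counts, so the size of their corrected levels depends on the pseudocount.

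Few contacts of the interval stood out at their distance in both libraries. Detection in both replicates was the study's own criterion, while the z and the threshold used for it were chosen here. A z was computed for each pair as its count against a smooth fit on distance, in units of the spread at that distance, and a pair was called at 2 or more in both libraries. This gave 6 of 609 pairs (0.985%), against 1.45% of all pairs. F54-R33 had z of 3.56 and 3.78 and F49-R33 of 3.13 and 3.31, both with the Igha end of the 3' regulatory region. The other 4 reached VH segments: F402-R61 (3.02 and 3.14), F54-R208 (1139 and 1620 counts over 553 kb, 2.47 and 3.62), F49-R435 (672 and 758 counts over 1.31 Mb, 2.45 and 2.92) and F54-R435 (619 and 660 counts over 1.28 Mb, 2.03 and 2.25). R435 (115877939 to 115880010) was thus called from both the Ighg1 and the Ighg3 side. F54-R208 and F54-R435 were not above their fragments in the corrected levels (0.47, adjusted p = 0.118, and -0.42, adjusted p = 0.2). With a wider span of 0.4 for the fit, or on the log2 scale, 3 pairs were called. After iterative correction over primers 2 pairs were called, of which F402-R61 alone was among the 6, and F54-R435 went to a mean z of -0.11.

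In the flanks, contacts of the interval went in opposite directions by fragment. Past the 3' regulatory region 4 of 48 pairs were higher (8.33%) and 11 lower (22.9%), against 12.0% and 7.53% of all pairs. The lower calls came from R48 (4 of 8 pairs), R55 (4 of 8) and F54 (3 of 8), and the higher from F49 (3 of 8) and F58 (1 of 8). The 3 higher calls of F49 were lost in the restricted fit, with levels from -0.11 to 0.061. F20 (114409003 to 114420752) gave the lowest value, with 185 and 130 counts to R55 (-2.92, SE 0.317, adjusted p = 0.000107), and 874 and 246 to R48 (-1.36, adjusted p = 0.00647). The restricted fit kept 8 of the 11 lower calls, without F20-R48 (-0.54, adjusted p = 0.202), F18-R48 and F18-R55. It newly called R61 higher with F6 (0.65, adjusted p = 0.0437), F9 (0.78, 0.0466) and F20 (0.88, 0.016). F49-R4 (-0.60, adjusted p = 0.039) and F14-R48 (-0.75, 0.0312) were newly called lower. In all it called 4 of the 48 pairs higher and 10 lower, against its background of 24.7% and 19.0%. F3-R55, the highest by distance level in this flank, had 1894 and 1417 counts over 259 kb and a corrected level of -0.22 (adjusted p = 0.448). Past the VH segments 3 of 51 pairs were higher (5.88%) and 1 lower (1.96%), both below the shares of all pairs. All but 1 of these calls involved R851, which was higher with F49 and F58 and lower with F54. F54-R840, 2.72 Mb away, had the highest distance level there, with 528 and 841 counts.

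Against the neighbouring constant genes, the interval's medians with the 3' regulatory region, Eμ with JH and VH lay between those of others. With the 3' regulatory region the median corrected level was -0.60 ± 0.0831 (SD, n = 2) for Igha and Ighe, -0.14 ± 0.138 for Ighg2c and Ighg2b, 0.056 ± 0.0994 for Ighg1 and Ighg3 and 0.76 ± 0.0332 for Ighd and Ighm. The median distances to that region grew in the same order, from 45.0 kb over 78.3 kb and 134 kb to 193 kb. The libraries gave -0.23 and -0.039 for Ighg2c with Ighg2b and -0.015 and 0.13 for Ighg1 with Ighg3. With Eμ and JH the levels were -0.15 ± 0.0989, -0.79 ± 0.0435, -0.56 ± 0.0553 and -1.18 ± 0.141 in the same order of intervals, and with VH they lay between 0.060 and 0.17. Igha and Ighe as partner gave 0.59 for Ighg1 and Ighg3, -0.34 for Ighg2c and Ighg2b and 0.68 for Ighd and Ighm. Of the 30 pairs of that last group 15 were called higher (50%) and 0 lower, against 12.0% and 7.53% of all pairs. Ighg2c and Ighg2b as partner gave 0.39 for Ighg1 and Ighg3, above 0.28 for Ighd and Ighm and -0.34 for Igha and Ighe. By z, 18 of 609 pairs were called for Igha and Ighe (2.96%), 13 of 514 for Ighg2c and Ighg2b (2.53%), 6 of 609 for Ighg1 and Ighg3 and 11 of 1005 for Ighd and Ighm (1.09%). The intervals share pairs with each other and differ in distance, and the differences between them were not tested.

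**Figure D5:**
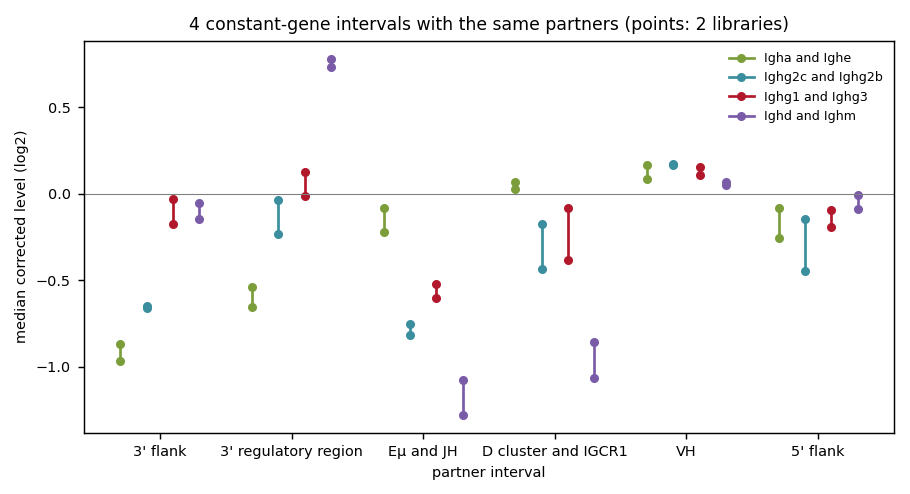
Median corrected level (log2) of 4 constant-gene intervals with the same 6 partner intervals, with 1 point per replicate joined by a line. Ighg1 with Ighg3 (red) lies near 0 with the 3' regulatory region, between Igha with Ighe below and Ighd with Ighm above, and all 4 intervals lie below 0 with Eμ and JH.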

How the data were processed

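The 2 libraries were analysed as 1 group. Each deposited matrix gives, per the file headers, my5C counts of ligation products for each forward and reverse primer, after a step named transpurge. Reads were handled with Novoalign and build mm9, per the submitters' processing notes, with versions and settings not given in the sources used here. The matrices hold 206 fragments, of which 6 had midpoints in the interval. Pairs on chromosome 5 were not analysed here.

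Distances ran between fragment midpoints in build mm9, without regard to VDJ rearrangement. z was the residual of the count from a LOWESS (statsmodels 0.14.6, span 0.2) on log10 distance, over the root of the smoothed squared residual, and was called at 2 or more in both libraries. Distance levels were log2(count + 1) less a LOWESS fitted without the 81 pairs that share a site. Corrected levels also had additive primer effects removed (30 rounds) and were tested with limma 3.58.1 against 0, with a variance trend on the mean and Benjamini-Hochberg adjustment over 10503 pairs. Both libraries count as replicates as labelled. The functions were tested on simulated data.

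Named pairs were all z calls, the 10 highest and 10 lowest corrected levels among the pairs called by limma, and the highest distance level per partner interval. Other pairs of the same fragments and partners were added after their values were seen. Partner interval edges are approximate, from general knowledge of the locus. Gene order came from RefSeq (GRCm38.p6), used for names only. The interval, partner groups and lists were chosen with earlier results of these data known. Alternatives covered thresholds, spans, pseudocount, filters, iterative correction (100 rounds), the variance trend and each replicate alone.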

Additional observations from a re-analysis of the deposited data

How the results depend on the processing

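No paired analysis was possible because both libraries form 1 group. The 6 z calls were 13 at a threshold of 1.5, 3 at a threshold of 3, 3 at a span of 0.4, 3 on the log2 scale and 2 after iterative correction without shared-site pairs, where the z of F54-R435 was -0.109. Single replicates gave 10 to 11. The 85 higher and 55 lower pairs were 2 and 2 without a variance trend (1.10% and 0.352% of all pairs). They were 64 and 28 of 567 without pairs of a mean count under 10, where fewer pairs are tested (9.90% and 4.54% of all pairs). Chosen after seeing the data, a fit below the VH segments gave 54 and 29 of 178 pairs (24.7% and 19.0% of all its pairs), in which F40-R48 turned from -0.54 to 0.57 (both called). A minimum size of 1, chosen likewise, gave 49 and 35 of 607 pairs, against 9.48% and 6.09% of all pairs. Both shares of the interval lay below this background, unlike those of the main setting. The other 4 alternatives gave 77 to 94 higher and 50 to 68 lower. With additive primer effects removed, the levels with the 3' regulatory region, other constant genes, Eμ with JH and VH were 0.056, 0.165, -0.561 and 0.131. With any overlap as the rule, which adds F46, the level was 1.01 with the 3' regulatory region and 0.747 with VH, and the VH share 17.5%. A pseudocount of 5 gave 1.45 and 0.881 and a span of 0.4 gave 1.58 and 1.06 for these 2 partners. Leaving out pairs under 50 kb, also chosen after seeing the data, gave 2.31 with other constant genes and 2.15 with Eμ and JH. With shared-site pairs kept, shares were 11.7% (3' regulatory region), 41.8% (other constant genes) and 16.7% (VH). Single replicates gave levels of 1.53 to 1.55, 1.89 to 2.07, 1.18 to 1.68 and 1.08 to 1.08, and shares of 12.6% to 13.2%, 44.8% to 46.9%, 3.65% to 5.19% and 18.0% to 18.6%, in the same order of partners. Causes of these shifts were not tested beyond what each setting leaves out. Depth limits what can be said of the 3 pairs with no count in either library.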
